A study of Mus musculus with 82 samples.

Results

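The data described here are 6 mRNA libraries of right ear punches taken on day 5 from female C57BL/6J mice (labelled "C57BL/6J Rj"). These mice had received 5% imiquimod cream on the ears once a day from day 0 and IDOR-1117-2520 in their drinking water from at least 1 day before the cream began. Imiquimod, the active substance of Aldara cream, is an agonist of the endosomal receptor TLR7. IDOR-1117-2520 is an oral small molecule inhibitor of CCR6, the receptor of the chemokine CCL20. These drug ears, numbered 31 to 36 in the titles, were compared with the 4 sham ears of day 5, numbered 19 to 22 and labelled vehicle or sham, out of 82 libraries in the series. The 6 ears that had imiquimod alone for the same time (25 to 30) are given beside them. A second set of libraries, the start-day experiment, in which the drug began on different days and all ears were labelled as sampled on day 8, served only to say which genes imiquimod moves, from its 6 sham and 6 imiquimod ears. The question is which genes of the inflamed ear were still away from sham under the drug on day 5 and which were back at the sham level. The members were chosen by label alone and not by any measured value.

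CCR6 is carried by T cells that make IL-17, among them gamma delta T cells of the dermis, and by subsets of dendritic and B cells. Its ligand CCL20 is made by keratinocytes. In imiquimod-treated skin, TLR7 sensing leads dendritic cells and macrophages to make IL-23, and this drives IL-17A, IL-17F and IL-22 from T cells. These cytokines make keratinocytes divide, switch keratins, release antimicrobial proteins and call in neutrophils. The genes below are therefore taken in that order, from the IL-23 and IL-17 cytokines to the epidermis and then to the other cells of the ear.

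Total counts were 19228900 to 28166800 in the drug ears, 22348200 to 23998300 in the sham ears and 19813800 to 24682200 in the imiquimod ears. Levels are given as CPM, the count of a gene scaled to a common library total, so levels are compared between libraries and never between genes. Markers of the tissues of the ear were present in all of these libraries: Krt5 and Krt10 of keratinocytes, Col2a1 of cartilage and Acta1 of skeletal muscle were each found in all 16 day 5 ears, Col2a1 at 29.3 to 80.3 (median 48.4) CPM in the drug ears. Whether each library came from its own animal is not in the labels, and the p-values therefore speak only of the scatter among the libraries at hand. On principal components of the 16 day 5 libraries, component 1 held 79.4% of the variance and placed the sham ears at -84.2 to -81.0, the drug ears at -15.0 to 32.4 and the imiquimod ears at 36.9 to 57.1. The drug ears thus lay between the other groups without overlap, with library 32 nearest to sham and library 36 nearest to imiquimod. Library 36 also stood apart from the other drug ears on component 2, at 3.03 against -28.6 to -16.0.

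**Figure D1:**
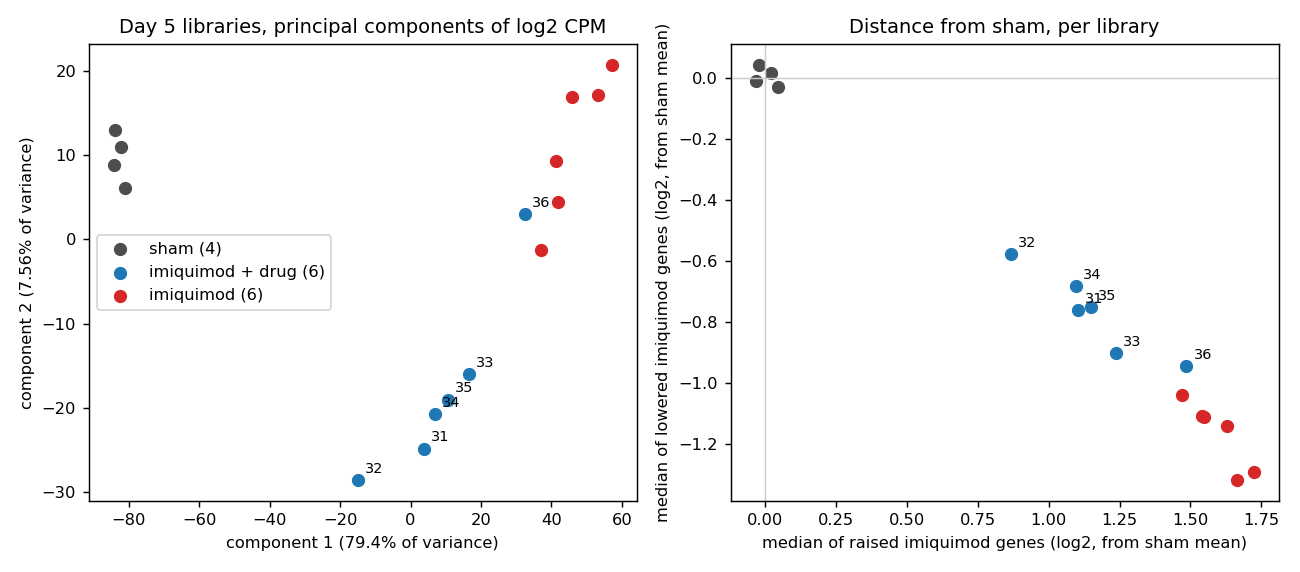
Each point is 1 of the 16 day 5 libraries (sham 4, imiquimod with the drug 6, imiquimod 6), with drug libraries labelled by number; the left panel plots principal components 1 and 2 of log2 CPM, and the right panel the median log2 difference from the sham mean over imiquimod-raised (horizontal) and imiquimod-lowered genes (vertical). The drug ears lie between sham and imiquimod on component 1, from -15.0 (32) to 32.4 (36), and in the right panel library 36 lies within the imiquimod range for raised genes at 1.49.

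The drug ears remained far from sham. Of 18780 genes tested, 11331 differed between drug and sham ears on day 5 (60.3%; edgeR's quasi-likelihood test, adjusted p under 0.05), 5832 of them higher (31.1%) and 5499 lower (29.3%) in the drug ears. With a fold change of at least 2 as well, the rule used here for a gene still away from sham, 2736 genes passed (14.6%), 1540 higher (8.2%) and 1196 lower (6.37%). By contrast 11756 genes (62.6%) had a 95% interval of the fold change that lay wholly within 2-fold of sham, the rule used here for a gene at the sham level, and 6952 of those also passed the test with a smaller change. The median log2 difference over all tested genes was -0.02, so all differences below are read from a centre near 0. Counts of called genes in the lists below are likewise to be read beside these shares of all tested genes. Against imiquimod ears, 3428 genes were higher (18.3%) and 3226 lower (17.2%) in the drug ears. That comparison and the comparison of imiquimod with sham share libraries with the one described here, so their values are set side by side.

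Imiquimod itself moved 5421 genes by at least 2-fold in the start-day experiment, of which 5301 were tested here. Of the 2166 raised by imiquimod there, 1330 (61.4%) were still away from sham in the same direction in the drug ears, 336 (15.5%) were within 2-fold of sham, 496 (22.9%) met neither rule and 4 were away in the opposite direction. Of the 3135 lowered by imiquimod, 933 (29.8%) were still away, 1018 (32.5%) were within 2-fold of sham, 1182 (37.7%) met neither rule and 2 were away in the opposite direction. Among the genes still away, 726 of the 1330 raised and 464 of the 933 lowered genes differed from the imiquimod ears of day 5 towards sham, and 24 and 4 differed further from sham. Not every gene at the sham level had been moved by day 5: only 104 of the 336 raised and 314 of the 1018 lowered genes were at least 2-fold from sham in the imiquimod ears of the same day, and 104 and 312 of these were nearer to sham in the drug ears by the test.

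Taken per library, the raised genes had a median log2 difference from the sham mean of 1.10, 0.868, 1.24, 1.10, 1.15 and 1.49 in drug ears 31 to 36, against 1.47 to 1.72 in imiquimod ears and -0.03 to 0.05 in sham ears. The lowered genes had medians of -0.76, -0.58, -0.90, -0.68, -0.75 and -0.94 in drug ears 31 to 36, against -1.32 to -1.04 in imiquimod ears. Library 36 reached the imiquimod range for the raised genes, and the lowered genes showed no overlap. The median of the drug libraries was 70.9% of that of the imiquimod libraries for raised genes (SD over drug libraries 12.7) and 67.2% for lowered genes (SD 12.1).

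**Figure D2:**
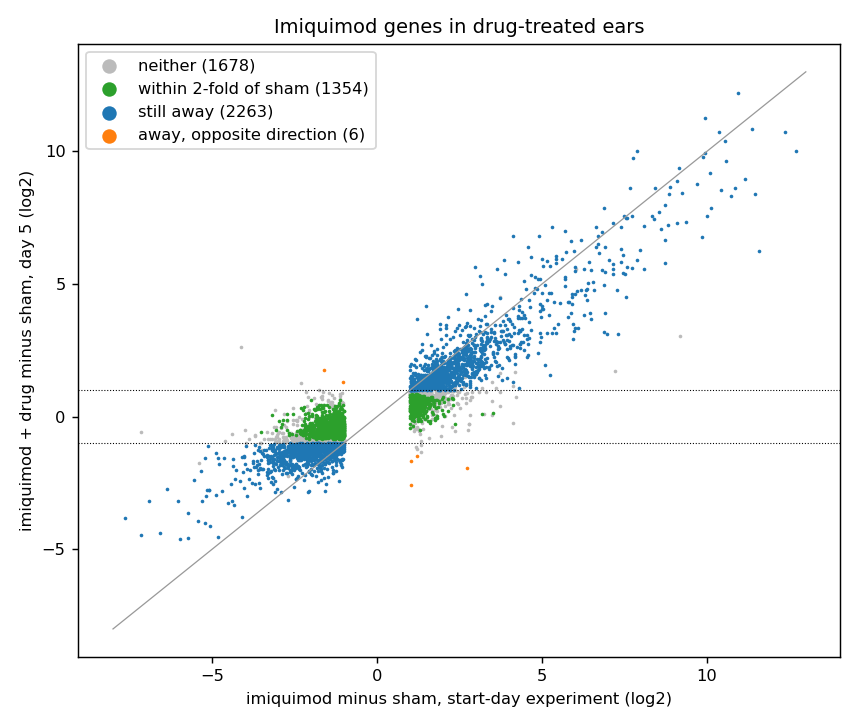
Log2 difference of drug from sham ears on day 5 (vertical) against that of imiquimod from sham in the start-day experiment (horizontal), 1 point per imiquimod gene, coloured by state in the drug ears, with dotted lines at a 2-fold change and a grey line of equality. Points still away (1330 raised, 933 lowered) lie beyond the dotted lines, and those within 2-fold of sham (336 raised, 1018 lowered) lie between them.

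The cytokines of the IL-23 and IL-17 axis were still above sham under the drug, with IL-17A and IL-17F lower than in imiquimod ears and no difference from imiquimod ears called for the IL-23 subunits. Of the 15 genes of the axis tested, 10 were higher and 3 lower than sham, 9 and 1 of them by at least 2-fold, and 4 were within 2-fold by interval. The median log2 difference was 2.10, and 2.23 in imiquimod ears, against -0.02 over all genes. Il23a, the p19 subunit of IL-23, measured 0, 0.210, 0.0415 and 0.0400 CPM in sham ears 19, 20, 21 and 22, the order used for every gene here, and 0.438 to 1.58 (median 0.968) CPM in the drug ears. All drug ears lay above all sham ears, with a log2 difference of 3.71 ± 0.67 (adjusted p = 4.5e-06), and 0.16 ± 0.44 (adjusted p = 0.81) against imiquimod ears. Il12b, the p40 subunit, had 0, 0, 0 and 0.0799 CPM in sham ears and 0.386 to 3.85 (median 1.78) CPM in drug ears, again without overlap. Summed over libraries its drug level was 96.2 (95% interval 26.4 to 799) times that of sham, a ratio that rests on 2 sham counts and whose interval covers counting error only. Its difference from imiquimod ears was 1.09 ± 0.48 (adjusted p = 0.072).

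Ccl20, the ligand of the receptor that the drug blocks, measured 0.265, 0.629, 0.291 and 0.200 CPM in sham ears, 2.37 to 27.98 (median 15.5) CPM in drug ears and 1.78 to 16.5 CPM in imiquimod ears. It was 5.37 ± 0.79 (adjusted p = 1.3e-07) above sham in log2 units and, in the drug ears, 1.19 ± 0.48 (adjusted p = 0.047) above the imiquimod ears, although the ranges of these groups overlapped. Ccr6 itself was near the limit of detection, at 0.379, 0.377, 0.0831 and 0.0799 CPM in sham ears and 0.275 to 0.871 (median 0.485) CPM in drug ears. The groups overlapped, and the log2 difference of 1.19 ± 0.49 (adjusted p = 0.033) lost its call in 7 of the alternatives, among them without drug library 33 (adjusted p = 0.091), without drug library 36 (0.073), without sham library 21 (0.13) and without sham library 22 (0.13).

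Il17a had 0 counts in each sham ear and 0 to 0.306 (median 0.270) CPM in the drug ears, where library 32 also had 0, against 0.203 to 1.92 CPM in imiquimod ears. Set against a floor of 3 counts over the sham group its summed drug level was at least 7.42-fold higher (adjusted p = 0.00096), and its log2 difference from the imiquimod ears was -2.11 ± 0.58 (adjusted p = 0.0038). In bulk ear tissue, fewer cells of a type and less RNA per cell cannot be told apart. Il17f measured 0.190, 0.0419, 0 and 0.479 CPM in sham ears, 0.533 to 4.02 (median 1.94) CPM in drug ears and 3.60 to 9.67 CPM in imiquimod ears. Every drug ear exceeded every sham ear, at a log2 difference of 3.59 ± 0.68 (adjusted p = 1.2e-05), and the drug ears were -1.61 ± 0.43 (adjusted p = 0.0027) from the imiquimod ears. Il22, a cytokine that acts on keratinocytes, had 0.0379, 0, 0 and 0.0400 CPM in sham ears and 0.779 to 4.33 (median 2.62) CPM in drug ears, a ratio of 129.6 (95% interval 35.6 to 1075) on 2 sham counts. Against imiquimod ears Il22 differed by -0.98 ± 0.47 (adjusted p = 0.096), which was not called. Il17c, an IL-17 family member made by epithelium, had 0, 0, 0.0831 and 0 CPM in sham ears and 0.220 to 1.26 (median 1.05) CPM in drug ears, a ratio of 43.1 (95% interval 11.7 to 359.9) on 2 sham counts.

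Of the receptors, the common chain was near sham. Il17ra measured 35.3, 35.6, 37.3 and 31.97 CPM in sham ears and 33.5 to 49.8 (median 37.5) CPM in drug ears, overlapping ranges with a log2 difference of 0.18 ± 0.09 (adjusted p = 0.093), called without drug library 32 (adjusted p = 0.038). Imiquimod ears were at 52.96 to 75.2 CPM. Il23r was called higher at 2.10 ± 0.70 (adjusted p = 0.0081) with overlapping ranges, and limma voom did not call it (adjusted p = 0.079).

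**Figure D3:**
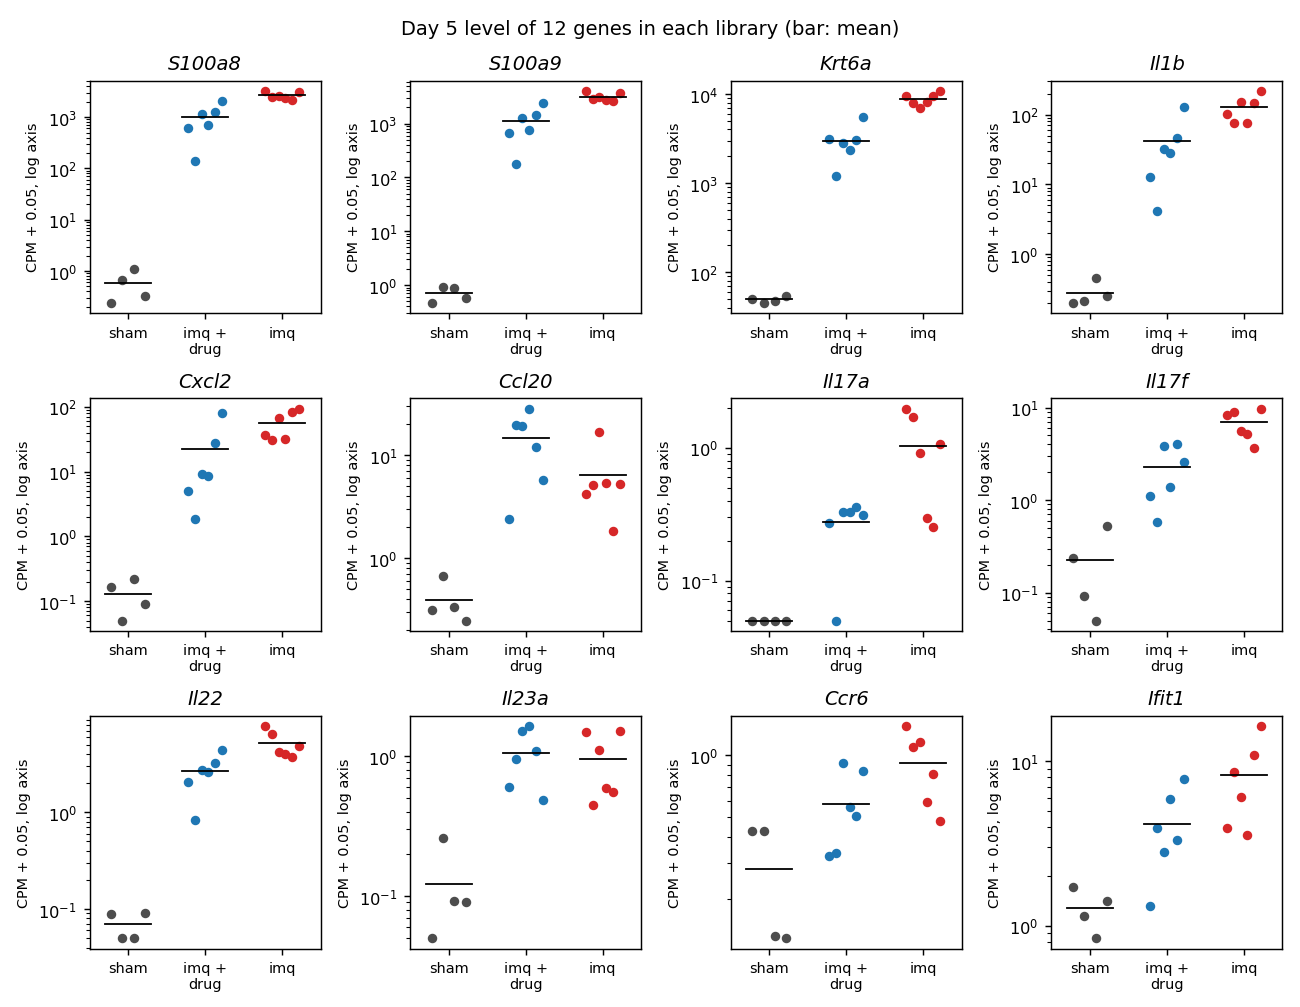
CPM of 12 panel genes in the day 5 sham, drug and imiquimod ears on a log axis, with 0.05 CPM added so that 0 can be drawn, each point 1 library and each bar a group mean. Il17a lies at 0 in all sham ears and in drug ear 32, while S100a8 and S100a9 show no overlap between sham and drug ears.

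Genes of neutrophil attraction, 6 chemokines and 4 receptors of attractants on phagocytes, were still far above sham. All 10 genes tested were higher than sham by at least 2-fold, and 6 were lower in drug than in imiquimod ears. Their median log2 difference was 7.20, or 5.85 with genes at 0 in sham set to their bound, and 8.71 in imiquimod ears. Cxcl2, a ligand of CXCR2, measured 0.114, 0, 0.166 and 0.0400 CPM in sham ears and 1.80 to 79.1 (median 8.91) CPM in drug ears. Library 36 held the top value, far above the next drug ear, and the log2 difference of 7.99 ± 1.70 (adjusted p = 8.3e-05) was not called by limma voom (adjusted p = 0.083). Cxcl5 measured 0, 0.0419, 0 and 0.0799 CPM in sham ears and 0.287 to 18.03 (median 8.85) CPM in drug ears, a ratio of 284 (95% interval 96.8 to 1378) on 3 sham counts, against 35.1 to 86.3 CPM in imiquimod ears. Drug and imiquimod ears did not overlap for Cxcl5, with a log2 difference of -2.67 ± 0.64 (adjusted p = 0.00096). Cxcl3 had 0 counts in each sham ear and 0.246 to 18.9 (median 3.92) CPM in drug ears, at least 207-fold higher. Fpr1 and Fpr2, receptors of formylated peptides on phagocytes, were also at 0 in sham ears and at least 42.9-fold and 78.0-fold higher in drug ears.

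Neutrophil markers were still raised, less than with imiquimod alone. Of 14 tested, 13 were higher than sham and 1 was lower, all by at least 2-fold, and all 14 were lower in drug than in imiquimod ears. Their median log2 difference was 4.95 under the drug, or 4.48 with bounds, and 7.55 under imiquimod. Their summed level ran from 18.9 to 27.2 CPM in sham ears, 345 to 4601 CPM in drug ears and 5105 to 7500.5 CPM in imiquimod ears. That sum was mostly the calprotectin subunits. S100a8 measured 0.190, 0.629, 1.04 and 0.280 CPM in sham ears, 142 to 2060.3 (median 909) CPM in drug ears and 2183 to 3209.8 CPM in imiquimod ears. None of the 3 groups overlapped another. It was 10.86 ± 1.09 (adjusted p = 1.4e-11) above sham and -1.42 ± 0.53 (adjusted p = 0.033) from imiquimod ears in log2 units. S100a9, its partner, measured 0.417, 0.880, 0.831 and 0.519 CPM in sham ears and 179 to 2378 (median 1008) CPM in drug ears, a log2 difference of 10.72 ± 1.06 (adjusted p = 8.4e-12). Keratinocytes also make both genes in inflamed skin.

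Markers more closely tied to the neutrophil itself were at low levels. Ly6g had 0 counts in each sham ear, 0 to 0.831 (median 0.0998) CPM in drug ears and 0.541 to 1.62 CPM in imiquimod ears, at least 6.46-fold above sham, and was not called by limma voom (adjusted p = 0.051). Csf3r, the receptor of G-CSF, was 4.28 ± 0.68 (adjusted p = 6.7e-07) above sham, and its ligand Csf3 was at 0 in sham ears and at least 13.2-fold higher in drug ears. Mmp9, a protease of neutrophil granules that other cells also make, went the other way: 15.8, 14.5, 16.3 and 21.1 CPM in sham ears, 3.53 to 13.2 (median 5.86) CPM in drug ears and 17.3 to 39.5 CPM in imiquimod ears. Every drug ear was below every sham ear, at -1.33 ± 0.32 (adjusted p = 0.00036), whereas imiquimod ears had 0.73.

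Among IL-1 family genes several cytokines were still raised, and 2 receptor chains were at the sham level. Of 17 tested, 11 were higher and 1 lower, 8 by at least 2-fold, while 31.1% of all tested genes were higher and 29.3% lower. By interval 9 were within 2-fold, against 62.6% of all tested genes. The median of the 17 was 0.62, and 1.36 in imiquimod ears. Il1b measured 0.152, 0.168, 0.415 and 0.200 CPM in sham ears and 4.06 to 129 (median 30.2) CPM in drug ears, with library 36 far above the other drug ears. No drug ear overlapped sham, at a log2 difference of 7.47 ± 1.45 (adjusted p = 2.1e-05). Il36a, an epidermal agonist of the IL-36 receptor, was not called different from imiquimod ears: 2.35004, 3.02, 4.11 and 2.84 CPM in sham ears, 46.4 to 73.3 (median 62.5) CPM in drug ears and 40.3 to 85.3 CPM in imiquimod ears. For Il36a the log2 difference was 4.34 ± 0.27 (adjusted p = 6.5e-18) against sham and -0.08 ± 0.18 (adjusted p = 0.78) against imiquimod. Il36rn, the antagonist of that receptor, was 1.36 ± 0.15 (adjusted p = 6.4e-11) above sham and 0.35 ± 0.13 (adjusted p = 0.024) above imiquimod ears, and Il1rn, the IL-1 receptor antagonist, was 1.26 ± 0.11 (adjusted p = 5.5e-14) above sham.

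Back at sham were Il1r1, Il33 and Il1rap. Il1r1, the signalling IL-1 receptor, measured 60.6, 57.6, 53.7 and 63.4 CPM in sham ears, 53.5 to 66.8 (median 61.9) CPM in drug ears and 85.3 to 121 CPM in imiquimod ears. Sham and drug ears overlapped, at 0.04 ± 0.10 (adjusted p = 0.73), and all drug ears lay below all imiquimod ears. Il33, an alarmin, measured 95.03, 125, 116 and 115 CPM in sham ears, 64.3 to 201 (median 142) CPM in drug ears and 257 to 367 CPM in imiquimod ears. For Il33 the log2 difference was 0.28 ± 0.23 (adjusted p = 0.31) against sham and -1.21 ± 0.21 (adjusted p = 1.7e-05) against imiquimod. Il1rap, the shared co-receptor, was 0.04 ± 0.08 (adjusted p = 0.69) from sham, and imiquimod ears had 0.58.

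Among the IL-6, TNF and colony-stimulating genes, 8 of 12 were higher and 2 lower than sham, 4 by at least 2-fold, with a median of 0.71, and 1.16 in imiquimod ears. Il6 was 4.47 ± 1.02 (adjusted p = 0.00018) and Osm 3.84 ± 0.86 (adjusted p = 0.00016) above sham. Tnf at 0.61 ± 0.26 (adjusted p = 0.042) lost its call in 9 alternatives (adjusted p up to 0.16), among them without drug library 33, 35 or 36 and without sham library 20, 21 or 22. Of 6 genes of the IL-20 subfamily, 2 were higher and 2 lower. Il19, made by keratinocytes and myeloid cells, was called higher at 7.32 ± 1.27 (adjusted p = 3.2e-06) with overlapping ranges and was not called by limma voom (adjusted p = 0.081). Il20ra, a receptor chain, fell by 1.38 ± 0.16 (adjusted p = 3.1e-10) on the log2 scale. Of 14 genes of NF-kB and SOCS feedback, 10 were higher and 1 lower (none lower without sham library 20), 5 by at least 2-fold. Nfkbiz, the IL-17-responsive regulator I kappa B zeta, was 1.98 ± 0.11 (adjusted p = 1.8e-19), and Zc3h12a, an RNase that limits inflammatory messages, was 2.74 ± 0.16 (adjusted p = 3.0e-19). Socs3, an inhibitor of cytokine signalling, was 1.47 ± 0.26 (adjusted p = 5.0e-06) against sham and -1.18 ± 0.22 (adjusted p = 4.5e-05) against imiquimod.

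Antimicrobial genes were still raised, most of them less than with imiquimod alone. Of 13 tested, 12 were higher than sham, 10 by at least 2-fold, with a median of 4.18, and 4.85 in imiquimod ears. Against imiquimod ears 8 were lower and 2 higher. Defb4, the mouse beta-defensin most studied in psoriasis-like skin, measured 0, 0.168, 0 and 0 CPM in sham ears, 1.07 to 6.61 (median 3.31) CPM in drug ears and 10.2 to 19.6 CPM in imiquimod ears. The 3 groups did not overlap, with 6.26 ± 0.90 (adjusted p = 7.3e-08) against sham and -1.98 ± 0.40 (adjusted p = 0.00015) against imiquimod. Lcn2, an iron-binding protein, measured 3.41, 2.81, 2.16 and 3.36 CPM in sham ears and 28.6 to 139 (median 74.4) CPM in drug ears. For Lcn2 the log2 difference was 4.67 ± 0.42 (adjusted p = 8.0e-13). Defb6 was an exception in being higher in drug than in imiquimod ears: 29.6, 33.3, 40.95 and 38.4 CPM in sham ears, 125 to 204 (median 179) CPM in drug ears and 94.1 to 129 CPM in imiquimod ears. For Defb6 the log2 difference was 2.28 ± 0.16 (adjusted p = 9.9e-17) against sham and 0.73 ± 0.13 (adjusted p = 1.6e-05) against imiquimod. Of 10 acute phase genes 8 were higher, all by at least 2-fold, and 1 was lower. Saa3, a serum amyloid A of inflamed tissue, was 9.80 ± 1.28 (adjusted p = 9.6e-09) above sham and -2.45 ± 0.48 (adjusted p = 0.00011) from imiquimod ears, and limma voom did not call the difference from sham (adjusted p = 0.051).

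The keratin and cornified envelope genes of activated epidermis were all still away. All 26 tested were higher than sham by at least 2-fold, 16 of them lower and 1 higher than in imiquimod ears, with a median of 7.14, and 8.21 in imiquimod ears. Krt6a, a keratin of wounded and hyperproliferative epidermis, measured 50.6, 45.2, 48.1 and 54.4 CPM in sham ears, 1192 to 5499.7 (median 2911) CPM in drug ears and 7002 to 10777 CPM in imiquimod ears. None of these groups overlapped, and the log2 differences were 5.92 ± 0.66 (adjusted p = 2.0e-10) against sham and -1.55 ± 0.45 (adjusted p = 0.0063) against imiquimod. Krt16, its usual partner, measured 7.54, 8.89, 12.7 and 11.2 CPM in sham ears and 1872 to 5201 (median 3386) CPM in drug ears. For Krt16 the log2 difference was 8.45 ± 0.77 (adjusted p = 7.4e-13). Krt17 measured 189, 205, 232 and 203 CPM in sham ears and 594 to 1398 (median 1162) CPM in drug ears. For Krt17 the log2 difference was 2.33 ± 0.25 (adjusted p = 4.4e-11), with a drug range that overlapped imiquimod ears. Small proline-rich proteins, which are cross-linked into the cornified envelope, were among the most raised genes: Sprr1b measured 1.63, 3.65, 5.03 and 4.08 CPM in sham ears and 353 to 679.9 (median 525) CPM in drug ears. For Sprr1b the log2 difference was 7.20 ± 0.56 (adjusted p = 8.2e-15). Sprr2d measured 0.114, 0.377, 0.291 and 0.240 CPM in sham ears and 87.0 to 363 (median 181) CPM in drug ears. For Sprr2d the log2 difference was 9.65 ± 0.77 (adjusted p = 2.0e-14), and Sprr2f, with 0 counts in sham ears, was at least 489-fold higher. The Sprr2 and Stfa genes are families of near-identical copies, so how reads were divided among their members is uncertain.

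Because these 26 genes moved together, their promoters were searched on both strands in the 250 bases before the transcription start. The letters were TGANTCA, a loosened form of the AP-1 site in which N is any base. Matches therefore need not be the consensus site. The promoters are RefSeq's on the GRCm38.p6 build, which is not the build of the counts. A promoter was given for 21 of the 26 genes, of which 9 held these letters (42.9%), against 5.06% of the 12838 tested genes with a promoter. Families of copies such as Sprr2 and Stfa may share promoter sequence, which was not tested, so the matches need not be separate cases. The letters were also in 5 of 17 type I interferon response promoters (29.4%) and 2 of 12 of NF-kB and SOCS feedback (16.7%). They were in 1 of 11 sebaceous gland, 1 of 14 cholesterol synthesis and 0 of 21 cell cycle promoters. The 150 bases before the start of Sprr1b (chr3:92438780-92438929, minus strand) are shown because this gene is among those with a match and is described above. The match, in capitals, is TGAATCA, with A as its middle base.
Sprr1b: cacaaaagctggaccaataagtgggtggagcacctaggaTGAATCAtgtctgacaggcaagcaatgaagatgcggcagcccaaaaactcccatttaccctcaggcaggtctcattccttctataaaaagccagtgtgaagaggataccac
A match is a description of the letters and was not tested for binding.

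The late differentiation genes, which build the barrier of the upper epidermis, lay on both sides of sham. Of 39 tested, 19 were higher and 8 lower than sham, 7 and 5 of them by at least 2-fold. By interval 19 were within 2-fold, against 62.6% of all tested genes. The median of the 39 was 0.33 under the drug and -0.39 under imiquimod, and 25 were higher and 5 lower than in imiquimod ears. Krt10, the main keratin of suprabasal cells, measured 10516, 11618, 14878 and 11619 CPM in sham ears, 10784 to 26369 (median 20875) CPM in drug ears and 6532 to 13649 CPM in imiquimod ears. Drug ears were above sham by 0.73 ± 0.17 (adjusted p = 0.00028) with overlapping ranges, and above imiquimod ears by 1.12 ± 0.15 (adjusted p = 2.9e-07). Krt2, a keratin of the upper layers, measured 9620.4, 10446, 14209 and 10796 CPM in sham ears, 6539 to 22790.5 (median 15165) CPM in drug ears and 2615 to 7265 CPM in imiquimod ears. It differed from sham by 0.44 ± 0.26 (adjusted p = 0.15), with sham lying inside the drug range, and from imiquimod by 1.70 ± 0.24 (adjusted p = 4.9e-07). Without drug library 36 the difference of Krt2 from sham was called (adjusted p = 0.037). Lor, loricrin, measured 1288, 1563, 1919 and 1510.3 CPM in sham ears, 447 to 1684 (median 1108) CPM in drug ears and 261 to 671 CPM in imiquimod ears. For Lor the log2 difference was -0.53 ± 0.26 (adjusted p = 0.075) against sham and 1.37 ± 0.24 (adjusted p = 2.0e-05) against imiquimod, and the former was called without drug library 32 (adjusted p = 0.020).

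Other barrier genes stayed away in either direction. Krt1, the partner of Krt10, measured 416, 665, 628 and 777 CPM in sham ears and 8543 to 12900.3 (median 9919.8) CPM in drug ears. For Krt1 the log2 difference was 4.07 ± 0.21 (adjusted p = 3.4e-20), with 3.92 in imiquimod ears. Flg, filaggrin, measured 256, 293, 464 and 281 CPM in sham ears, 987 to 2759 (median 2155) CPM in drug ears and 797 to 1820.1 CPM in imiquimod ears. For Flg the log2 difference was 2.68 ± 0.31 (adjusted p = 6.5e-10) against sham and 0.83 ± 0.25 (adjusted p = 0.0088) against imiquimod. Flg2, its relative, was lower: 441, 564, 735 and 596 CPM in sham ears, 23.1 to 181 (median 66.7) CPM in drug ears and 3.39 to 56.4 CPM in imiquimod ears. For Flg2 the log2 difference was -2.69 ± 0.44 (adjusted p = 1.0e-06). Krt77, a keratin of sweat ducts and interfollicular skin, measured 136, 499, 382 and 556 CPM in sham ears and 11.6 to 37.4 (median 23.5) CPM in drug ears. For Krt77 the log2 difference was -4.12 ± 0.40 (adjusted p = 5.6e-12). Neither Flg2 nor Krt77 overlapped between sham and drug ears.

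In the basal layer, 3 of 13 genes were higher and 9 lower than sham, 1 and 3 by at least 2-fold, with a median of -0.51, and -0.31 in imiquimod ears. Krt14, the basal keratin, measured 4588, 4595, 4755 and 4502 CPM in sham ears and 10404 to 15380.1 (median 12849.8) CPM in drug ears. For Krt14 the log2 difference was 1.47 ± 0.09 (adjusted p = 3.0e-19). Col17a1, a hemidesmosome collagen that anchors basal cells, measured 2556, 2922, 2864 and 2886 CPM in sham ears and 1335 to 1825 (median 1707) CPM in drug ears. For Col17a1 the log2 difference was -0.76 ± 0.07 (adjusted p = 1.7e-12), and Krt15, a keratin of resting basal cells, was at -2.496 ± 0.23 (adjusted p = 1.7e-12). No drug ear overlapped a sham ear for these 3 genes. Of 9 genes of the EGF receptor and its ligands, 6 were higher and 1 lower. Nrg1, whose symbol is shared between entries, is left out of these, and with its first entry counted 7 of 10 were higher. Areg and Hbegf, growth factors released by stressed keratinocytes, were 5.94 ± 1.11 (adjusted p = 1.1e-05) and 2.22 ± 0.37 (adjusted p = 1.6e-06) above sham, and Btc, betacellulin, was -2.25 ± 0.29 (adjusted p = 2.7e-09).

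Genes of DNA replication and mitosis were still raised throughout. All 24 tested were higher than sham and 22 of them by at least 2-fold, with a median of 1.80, and 2.08 in imiquimod ears. Of these 14 were lower than in imiquimod ears. Mki67, the proliferation marker, measured 68.0, 65.7, 54.4 and 68.8 CPM in sham ears, 197 to 265 (median 207) CPM in drug ears and 229 to 278 CPM in imiquimod ears. Sham and drug ears were widely separate, at 1.79 ± 0.15 (adjusted p = 2.9e-14), and drug and imiquimod ears overlapped, at -0.12 ± 0.12 (adjusted p = 0.50). Cdk1, the mitotic kinase, measured 13.1, 13.6, 13.2 and 13.4 CPM in sham ears and 40.97 to 58.6 (median 44.1) CPM in drug ears. For Cdk1 the log2 difference was 1.82 ± 0.14 (adjusted p = 4.9e-15), and Ccnb1, its cyclin, was at 2.12 ± 0.18 (adjusted p = 3.8e-14). The group varied little among drug ears, with medians per library of 1.61 to 2.09.

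Promoters of these cell cycle genes were searched for the cell cycle genes homology region, TTTGAA, and the CCAAT box, CCAAT, as above. The first was held by 7 of 21 genes (33.3%) against 11.4% of tested genes, and the second by 17 of 21 (81.0%) against 35.6%. The 150 bases before the start of Cdk1 (chr10:69352913-69353062, minus strand) are shown because they hold both, in capitals and not overlapping.
Cdk1: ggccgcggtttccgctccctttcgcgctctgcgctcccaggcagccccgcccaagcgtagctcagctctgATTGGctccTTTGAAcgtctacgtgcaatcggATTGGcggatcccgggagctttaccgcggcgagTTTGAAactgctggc
The CCAAT box is read there on the opposite strand.

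Type I interferon response genes were divided between raised genes and genes not called. Of 25 tested, 14 were higher than sham, all by at least 2-fold, 11 were not called and 7 were within 2-fold by interval. Their median was 1.37, and 2.42 in imiquimod ears, and 13 were lower than in imiquimod ears. Without drug library 36, 1 gene was lower than sham. Irf7, the amplifier of the response, measured 5.23, 7.80, 6.52 and 6.83 CPM in sham ears, 11.6 to 59.6 (median 16.1) CPM in drug ears and 31.2 to 72.5 CPM in imiquimod ears. Every drug ear lay above every sham ear, at 1.90 ± 0.38 (adjusted p = 2.9e-05) against sham and -1.002 ± 0.30 (adjusted p = 0.0068) against imiquimod. Isg15, a ubiquitin-like protein, measured 1.44, 0.713, 0.872 and 0.360 CPM in sham ears and 1.76 to 8.44 (median 3.24) CPM in drug ears. For Isg15 the log2 difference was 2.22 ± 0.58 (adjusted p = 0.00092). Ifit1 measured 1.67, 1.09, 0.789 and 1.36 CPM in sham ears and 1.27 to 7.79 (median 3.55) CPM in drug ears, overlapping at the low end, at 1.74 ± 0.53 (adjusted p = 0.0044), and limma voom put it at an adjusted p of 0.051. Ifit2 and Irf9 differed from sham by 0.13 ± 0.20 (adjusted p = 0.59) and 0.18 ± 0.17 (adjusted p = 0.37). Medians of the group ran from 0.50 to 2.53 over the drug ears.

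The 150 bases before the start of Ifit1 (chr19:34640739-34640888, plus strand) are shown because they hold several matches to the interferon-stimulated response element, searched as GAAANTGAA on both strands, with the matched bases in capitals and adjoining matches overlapping.
Ifit1: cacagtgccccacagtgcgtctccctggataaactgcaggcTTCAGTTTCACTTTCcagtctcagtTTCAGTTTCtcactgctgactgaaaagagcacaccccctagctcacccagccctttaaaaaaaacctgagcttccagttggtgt
The element was found in 8 of 17 interferon response promoters (47.1%), in 1.52% of tested genes and in 1.74% of all 27025 promoters of the table. Among imiquimod-raised genes it was in 29 of 922 promoters of genes still away (3.15%) and 1 of 241 of genes back at sham (0.415%). The kappa B site, GGANTTTCC, was in 23 (2.49%) and 4 (1.66%) of them, and the letters TGANTCA in 89 (9.65%) and 23 (9.54%).

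Interferon gamma and antigen presentation genes lay on both sides of sham. Of 20 tested, 4 were higher and 5 lower, 2 by at least 2-fold, and 13 were within 2-fold by interval (near the 62.6% of all tested genes), with a median of 0.06, and 0.31 in imiquimod ears. Without drug library 31 or 32, 6 were higher, 4 of them by at least 2-fold, and 5 lower. Without drug library 36 or sham library 22, 3 were higher, 1 of them by at least 2-fold, and 5 lower, and without drug library 36 the median was -0.04. H2-Aa, a class II chain, was -0.47 ± 0.14 (adjusted p = 0.0050) from sham, and Cxcl10, a T cell chemokine, was not called at 1.77 ± 0.82 (adjusted p = 0.059), but was without drug library 31 (adjusted p = 0.035) or 32 (0.040). In the endosomal TLR pathway, 10 of 13 genes were higher and 2 lower, 6 by at least 2-fold, or 3 without drug library 36. Tlr7, the receptor of imiquimod, measured 1.55, 2.05, 3.74 and 2.52 CPM in sham ears, 2.79 to 6.04 (median 4.09) CPM in drug ears and 5.95 to 9.25 CPM in imiquimod ears. Sham and drug ears overlapped, at 0.75 ± 0.26 (adjusted p = 0.012), which was not called without sham library 19 (adjusted p = 0.075), and the drug ears were -0.91 ± 0.22 (adjusted p = 0.0012) from imiquimod ears. Myd88, the adaptor, was at 1.02 ± 0.11 (adjusted p = 1.1e-11).

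Glycolysis and hypoxia response genes were still raised. Of 22 tested, 19 were higher than sham and none lower, 13 by at least 2-fold, and 7 were within 2-fold by interval. Their median was 1.27, and 1.68 in imiquimod ears, and 17 were lower than in imiquimod ears. Aldoa, whose symbol is shared between entries, is left out of these counts. With its first entry counted, 20 of 23 were higher than sham, with a median of 1.22. Ldha, lactate dehydrogenase A, measured 334, 321, 325 and 328 CPM in sham ears, 883 to 1309.8 (median 1087) CPM in drug ears and 1333 to 1417 CPM in imiquimod ears. The 3 groups were separate, at 1.73 ± 0.09 (adjusted p = 1.3e-21) against sham and -0.33 ± 0.08 (adjusted p = 0.00043) against imiquimod. Slc2a1, the glucose transporter GLUT1, measured 84.3, 80.8, 76.3 and 75.3 CPM in sham ears and 141 to 372 (median 201) CPM in drug ears. For Slc2a1 the log2 difference was 1.48 ± 0.17 (adjusted p = 1.6e-10). Pgk1 and Eno1, enzymes of the lower part of glycolysis, were at 1.93 ± 0.11 (adjusted p = 2.6e-20) and 1.88 ± 0.10 (adjusted p = 1.0e-21).

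Most cholesterol synthesis genes were higher in drug ears than in sham ears and than in imiquimod ears, by small amounts. Of 20 tested, 15 were higher than sham and none lower, none by 2-fold, and 18 were within 2-fold by interval, with a median of 0.46 against 0.26 in imiquimod ears. In the test against imiquimod ears 13 were higher and none lower. Hmgcs1, an early enzyme of the pathway, measured 534, 523, 538 and 581 CPM in sham ears and 534 to 843 (median 679.6) CPM in drug ears, against 477 to 547 CPM in imiquimod ears. Its groups overlapped at their margins. For Hmgcs1 the log2 difference was 0.32 ± 0.10 (adjusted p = 0.0051) against sham and 0.41 ± 0.09 (adjusted p = 0.00032) against imiquimod.

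The promoter of Hmgcs1 (chr13:119690201-119690350, plus strand, 150 bases before the start) is shown because it holds a match to the sterol response element, searched as TCACNCCAC, and a CCAAT box on the opposite strand, both in capitals and not overlapping.
Hmgcs1: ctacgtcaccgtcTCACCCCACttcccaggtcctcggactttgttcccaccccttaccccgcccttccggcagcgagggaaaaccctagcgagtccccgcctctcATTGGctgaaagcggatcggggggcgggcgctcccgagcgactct
The sterol response element letters were in 1 of 14 cholesterol synthesis promoters (7.14%) and 0.9503% of tested genes, and the CCAAT box was in 13 of 14 (92.9%).

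Sebaceous gland genes, many of them for lipid synthesis, were mostly higher than in imiquimod ears. Of 15 tested, 6 were higher and 6 lower than sham, 2 and 2 by at least 2-fold (2 and 0 without drug library 36), with a median of 0.13, and -0.69 in imiquimod ears. Compared with imiquimod ears 12 were higher and none lower. Elovl3, a fatty acid elongase of sebocytes, measured 115, 97.2, 101 and 132 CPM in sham ears, 227 to 376 (median 319.6) CPM in drug ears and 129.9 to 199.8 CPM in imiquimod ears. It was above both other groups without overlap, at 1.51 ± 0.19 (adjusted p = 3.2e-09) against sham and 1.005 ± 0.16 (adjusted p = 5.6e-06) against imiquimod. Far2, which makes wax alcohols, measured 313, 321, 347 and 366 CPM in sham ears, 218 to 376 (median 325) CPM in drug ears and 97.8 to 177 CPM in imiquimod ears. It was back at sham, at -0.11 ± 0.15 (adjusted p = 0.55), and above imiquimod ears by 1.20 ± 0.14 (adjusted p = 2.7e-08). Scd1, the stearoyl-CoA desaturase, measured 8207, 6878, 5749.5 and 7614 CPM in sham ears, 2669 to 5201 (median 3853) CPM in drug ears and 1677 to 2524 CPM in imiquimod ears, and it was between them at -0.83 ± 0.13 (adjusted p = 2.6e-07). The summed level of the 15 genes was 7395 to 9841 CPM in sham ears, 3990.2 to 7329 CPM in drug ears and 2558 to 3700.0 CPM in imiquimod ears, carried mainly by Scd1.

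Most xenobiotic and retinoid enzymes were lower than sham. Of 25 tested, 18 were lower and 5 higher, 9 and 3 by at least 2-fold, with a median of -0.71, and -1.43 in imiquimod ears. Against imiquimod ears 16 were higher and 4 lower. Aldh1a1, which makes retinoic acid, measured 32.03, 35.3, 32.02 and 39.4 CPM in sham ears and 8.62 to 17.5 (median 11.9) CPM in drug ears without overlap, at -1.47 ± 0.15 (adjusted p = 9.9e-12), while Aldh1a3, another enzyme for the same step, was at 2.42 ± 0.22 (adjusted p = 8.1e-14). Gsta4, a glutathione transferase for lipid aldehydes, was at 4.41 ± 0.46 (adjusted p = 3.7e-11) against sham and -1.40 ± 0.32 (adjusted p = 0.00053) against imiquimod.

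Of 16 metalloproteinases and inhibitors, 8 were higher, all by at least 2-fold, and 5 lower than sham, 1 by at least 2-fold, with a median of 0.60, and 1.76 in imiquimod ears, and 13 were lower than in imiquimod ears. Timp1, the inducible inhibitor, measured 4.81, 4.65, 4.82 and 5.07 CPM in sham ears, 8.53 to 90.1 (median 29.1) CPM in drug ears and 79.9 to 152 CPM in imiquimod ears. For Timp1 the log2 difference was 2.89 ± 0.46 (adjusted p = 7.5e-07). Mmp3 and Mmp10, stromelysins, were not called at -0.24 ± 0.21 (adjusted p = 0.34) and 0.20 ± 0.70 (adjusted p = 0.83), whereas imiquimod ears had 0.71 and 2.49. Of 19 lipoxygenase and prostaglandin genes, 10 were higher and 4 lower, 8 and 2 by at least 2-fold. Alox8, an epidermal lipoxygenase, measured 0.758, 0.880, 0.872 and 0.639 CPM in sham ears, 75.7 to 189.9 (median 102) CPM in drug ears and 57.8 to 144 CPM in imiquimod ears. It was 7.23 ± 0.70 (adjusted p = 3.7e-12) above sham and 0.15 ± 0.36 (adjusted p = 0.80) against imiquimod ears, while Ptgs2, the inducible cyclooxygenase, was 3.27 ± 0.63 (adjusted p = 1.8e-05) above sham and -1.42 ± 0.43 (adjusted p = 0.0091) from imiquimod ears.

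Macrophage and monocyte markers were raised less than with imiquimod alone. Of 16 tested, 15 were higher than sham, 13 by at least 2-fold, and all 16 were lower than in imiquimod ears. Their median was 1.40, and 2.19 in imiquimod ears. Mrc1, the mannose receptor, measured 30.4, 26.5, 36.5 and 37.8 CPM in sham ears, 56.3 to 179.9 (median 96.1) CPM in drug ears and 180.0 to 286 CPM in imiquimod ears. The groups did not overlap, although the highest drug ear nearly met the lowest imiquimod ear, at 1.71 ± 0.25 (adjusted p = 1.1e-07) against sham and -1.08 ± 0.21 (adjusted p = 7.7e-05) against imiquimod. Ly6c2 and Ccr2, markers of blood-derived monocytes, were 4.002 ± 0.70 (adjusted p = 3.5e-06) and 2.30 ± 0.37 (adjusted p = 9.7e-07) above sham. Cd163, a marker of resident macrophages, was 0.59 ± 0.21 (adjusted p = 0.013) above sham and was not called without drug library 36 (adjusted p = 0.078).

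Gamma delta T cell receptor genes were lower in the drug ears. Of 13 tested, 8 were lower than sham and 3 higher, 6 and 3 by at least 2-fold, with a median of -0.49, and -0.72 in imiquimod ears. With only genes of at least 1 CPM, or with limma voom, 8 were lower and 1 higher. Trdc, the delta constant region, measured 16.3, 17.2, 15.7 and 19.1 CPM in sham ears, 3.72 to 6.50 (median 5.09) CPM in drug ears and 4.63 to 19.1 CPM in imiquimod ears. Drug ears were below sham without overlap, at -1.72 ± 0.25 (adjusted p = 7.7e-08), and -0.74 ± 0.24 (adjusted p = 0.012) from imiquimod ears. The other 5 receptor chains tested were also lower than sham, with Trgc1, Trgc2 and Trgc4 at -1.56, -1.56 and -1.74. Trdv4 at -2.29 ± 0.35 (adjusted p = 1.2e-07) and Trgv5 at -1.48 ± 0.40 (adjusted p = 0.0012) are chains of the dendritic epidermal T cells. Scart1 and Scart2, scavenger receptors of IL-17-making gamma delta T cells, were not called at 0.23 ± 0.56 (adjusted p = 0.75) and 0.46 ± 0.30 (adjusted p = 0.18). The 3 higher members were Il17a and Il23r, given above, and Blk, a kinase, at 1.28 ± 0.51 (adjusted p = 0.027), which lost its call in 8 alternatives (adjusted p up to 0.17), among them without drug library 33 or 36 and without sham library 21 or 22.

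Of 12 alpha beta T and NK cell genes, 4 were higher and 5 lower than sham, 4 and 4 by at least 2-fold. Cd3e, a chain common to all T cells, measured 12.6, 11.99, 10.8 and 13.6 CPM in sham ears, 4.16 to 6.73 (median 5.18) CPM in drug ears and 2.01 to 4.03 CPM in imiquimod ears, all drug ears below all sham ears at -1.21 ± 0.16 (adjusted p = 8.5e-09). Foxp3, the factor of regulatory T cells, measured 0.265, 0.293, 0.125 and 0.0799 CPM in sham ears, 0.278 to 1.66 (median 0.698) CPM in drug ears and 1.37 to 3.73 CPM in imiquimod ears. For Foxp3 the log2 difference was 1.99 ± 0.59 (adjusted p = 0.0034) with overlap. Gzma, a granzyme, was at 0 in each sham ear and at least 22.5-fold higher. Of 12 Langerhans and dendritic cell genes, 3 were higher and 5 lower, against 31.1% and 29.3% of all tested genes. Cd207, langerin, was at -0.69 ± 0.15 (adjusted p = 0.00012) and Ccr7, which takes dendritic cells to lymph nodes, at 2.23 ± 0.38 (adjusted p = 1.3e-06). Mast cell genes had 2 higher and 2 lower of 10 (4 higher without drug library 34 and 1 without sham library 20), B cell genes 1 higher of 4, Cd79b, which was not called without drug library 36 or sham library 19 (adjusted p = 0.052 in both), and melanocyte genes 1 lower of 8, Mitf, or 3 lower without drug library 33 and 2 without drug library 32 or sham library 20 or 22. Of 6 red cell genes, 5 were higher, Hba-a2 at 1.25 and Hbb-bt at 1.72 among them. Their summed level was 107 to 199 CPM in sham ears, 292 to 463 CPM in drug ears and 324 to 636 CPM in imiquimod ears. The part of blood in the other results was not tested.

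Markers of the deeper tissues of the ear were lower in drug ears than in sham ears. Of 14 cartilage genes 12 were lower, 7 by at least 2-fold, and of 13 skeletal muscle genes 11 were lower, 3 by at least 2-fold. Of 10 Schwann cell genes 9 were lower, 2 by at least 2-fold (4 without sham library 21), and of 12 adipocyte genes 10 were lower, 1 by at least 2-fold. No gene of these 4 lists was higher. Medians under the drug and under imiquimod were -0.91 and -1.36 for cartilage, -0.77 and -1.26 for muscle, -0.86 and -1.11 for Schwann cells, and -0.50 and -1.56 for adipocytes. The summed levels were 1011 to 1371 CPM in sham ears and 547 to 885 CPM in drug ears for cartilage, and 6268 to 7945 and 2972 to 5016 CPM for muscle. These levels moved alongside the epidermal and immune groups above, and their part in those results was not tested.

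Adipoq, adiponectin, measured 44.1, 37.4, 37.9 and 43.3 CPM in sham ears, 19.2 to 38.2 (median 28.1) CPM in drug ears and 11.9 to 18.7 CPM in imiquimod ears. It was -0.55 ± 0.14 (adjusted p = 0.0011) against sham, with an overlap at the margin, and 0.94 ± 0.14 (adjusted p = 9.6e-07) above imiquimod ears. All 12 adipocyte genes were higher than in imiquimod ears. Lep, leptin, measured 8.68, 9.77, 8.68 and 14.7 CPM in sham ears, 2.93 to 7.52 (median 6.84) CPM in drug ears and 1.42 to 3.32 CPM in imiquimod ears. For Lep the log2 difference was -0.75 ± 0.21 (adjusted p = 0.0020). Comp, a cartilage matrix protein, was at -0.68 ± 0.10 (adjusted p = 9.7e-08). Neither Lep nor Comp overlapped between sham and drug ears.

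Fibroblast and matrix genes were lower in drug ears than in sham ears for 8 of 15 and higher for 2. By interval 12 were within 2-fold, against 62.6% of all tested genes, and 9 were lower than in imiquimod ears. Col1a1 was -0.52 ± 0.18 (adjusted p = 0.011) and Col1a2 -0.77 ± 0.14 (adjusted p = 9.3e-06), chains of type I collagen, both below sham, although Col1a1 was not called without sham library 19 (adjusted p = 0.073). Col3a1, of type III collagen, measured 2080.1, 1633, 1300.3 and 1557 CPM in sham ears, 1287 to 2628 (median 1817) CPM in drug ears and 2991 to 3736 CPM in imiquimod ears. It was back at the sham level, at 0.21 ± 0.20 (adjusted p = 0.36), and -0.86 ± 0.18 (adjusted p = 0.00016) from imiquimod ears. Pdgfra, a receptor that marks fibroblasts, was likewise -0.01 ± 0.13 (adjusted p = 0.98) from sham, and -0.89 ± 0.12 (adjusted p = 2.5e-07) from imiquimod ears. Dpp4, a protease of the fibroblast surface, was 1.92 ± 0.16 (adjusted p = 1.9e-14) above sham. In endothelium 5 of 15 genes were higher and 7 lower (4 lower without sham library 20). The median of the 15 was -0.04, and 11 were within 2-fold by interval. Only 2 were away from sham, Selp and Sele, selectins that catch leukocytes. These were 1.39 ± 0.27 (adjusted p = 1.9e-05) and 1.18 ± 0.30 (adjusted p = 0.00069) above sham. Their differences from imiquimod ears were -1.499 ± 0.22 (adjusted p = 1.0e-06) and -1.44 ± 0.24 (adjusted p = 1.1e-05). Of 10 hair follicle genes 2 were higher and 3 lower, with 2 lower by at least 2-fold and a median of 0.18. Without drug library 35, 1 was higher and 1 lower by at least 2-fold, and the median was -0.42. The 2 lower by at least 2-fold became 1 without drug library 31 or 36 or sham library 20 and none without sham library 19.

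**Figure D4:**
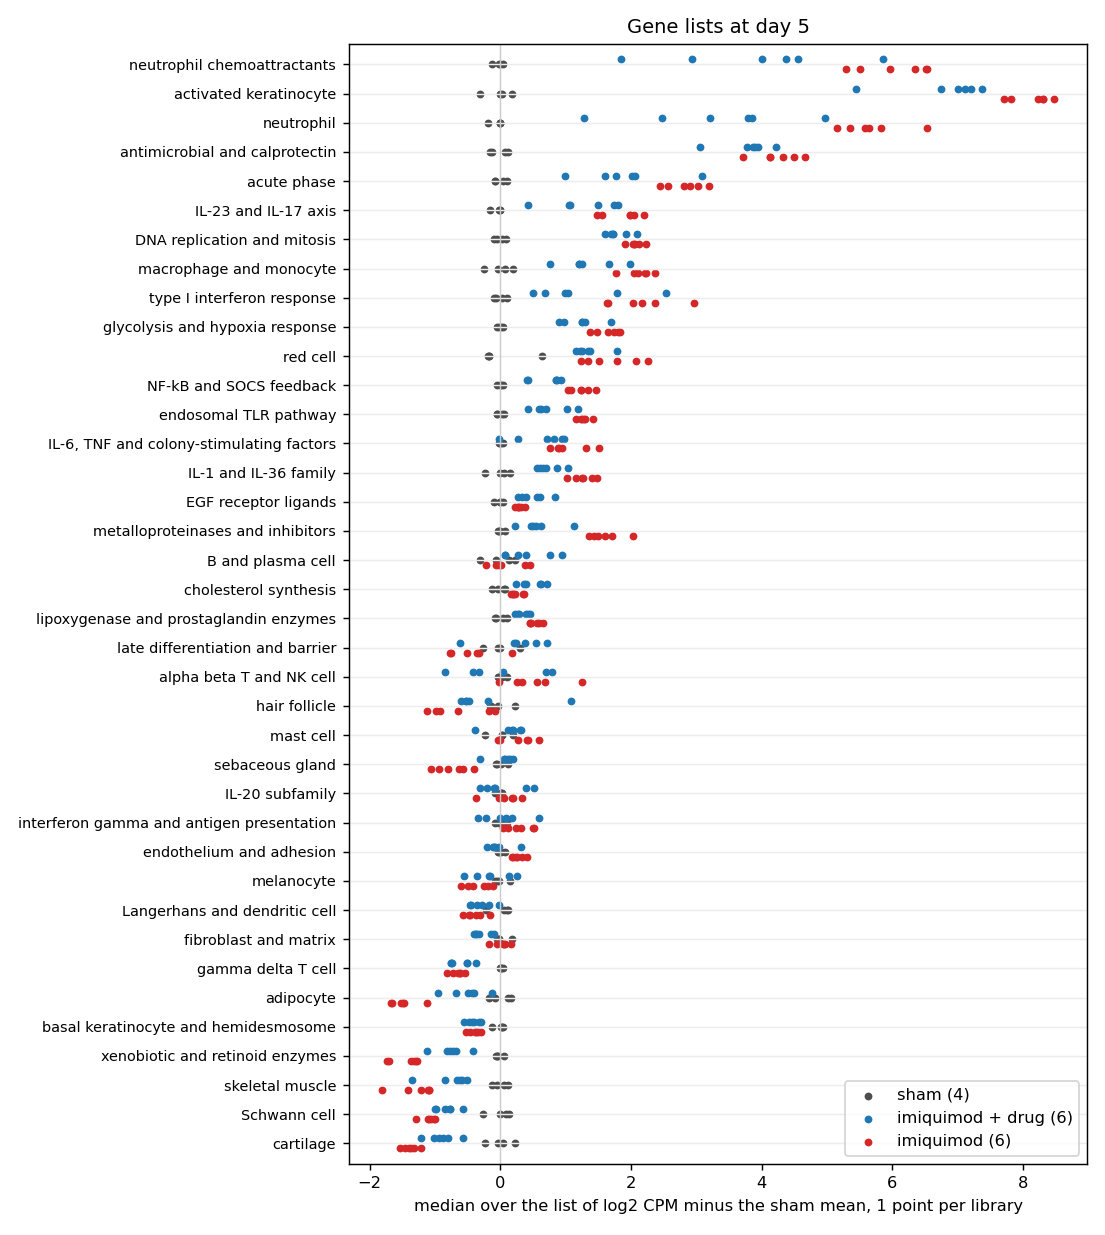
Median over each gene list (1 row per list) of the log2 CPM minus the sham mean in the day 5 ears, with 1 point per library coloured by group. Cell cycle genes lie at 1.61 to 2.09 in drug ears, and sebaceous gland genes at -0.30 to 0.19 in drug ears and -1.06 to -0.40 in imiquimod ears.

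Over the whole transcriptome, Cstdc5, a stefin A relative, had the highest log2 difference among the called genes whose log2 CPM averaged 1 or more, at 12.19 ± 1.14 (adjusted p = 1.9e-12). Cstdc5 measured 0.114, 0.210, 0.166 and 0 CPM in sham ears and 241 to 1010.1 (median 562) CPM in drug ears. Gpr15lg, an epithelial chemoattractant for GPR15-bearing T cells, measured 0.114, 0.252, 0.166 and 0.160 CPM in sham ears and 56.3 to 305 (median 132) CPM in drug ears. For Gpr15lg the log2 difference was 9.76 ± 0.86 (adjusted p = 2.8e-13). No sham ear came near any drug ear for either gene. At the other end, Krtap3-2, a hair keratin-associated protein, measured 11.6, 15.8, 16.5 and 14.7 CPM in sham ears and 0.131 to 1.38 (median 0.531) CPM in drug ears. For Krtap3-2 the log2 difference was -4.57 ± 0.42 (adjusted p = 5.2e-13). Paqr7, a membrane progestin receptor, measured 181, 198, 255 and 192 CPM in sham ears and 9.88 to 17.1 (median 11.97) CPM in drug ears. For Paqr7 the log2 difference was -4.02 ± 0.30 (adjusted p = 4.0e-15), and Car6, a secreted carbonic anhydrase, was at -3.14 ± 0.44 (adjusted p = 3.1e-08).

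Some genes stood further from sham under the drug than under imiquimod alone. One was Padi1: 0.948, 0.797, 1.495 and 1.24 CPM in sham ears, 2.28 to 6.07 (median 4.72) CPM in drug ears and 1.05 to 3.14 CPM in imiquimod ears. This peptidylarginine deiminase, which modifies filaggrin and keratins, was 1.99 ± 0.32 (adjusted p = 4.2e-07) against sham and 1.53 ± 0.27 (adjusted p = 1.7e-05) above imiquimod ears. Calm4, a calmodulin of differentiating epidermis, measured 1113, 1367, 1522 and 1281 CPM in sham ears, 1928 to 3596 (median 3204) CPM in drug ears and 1499 to 2527 CPM in imiquimod ears. For Calm4 the log2 difference was 1.20 ± 0.15 (adjusted p = 1.4e-09) and 0.67 ± 0.13 (adjusted p = 4.8e-05). Chit1, a chitinase, was 1.23 ± 0.08 (adjusted p = 1.3e-17) against sham and 0.67 ± 0.07 (adjusted p = 3.2e-09) above imiquimod ears, and Ivl, involucrin, 1.32 ± 0.17 (adjusted p = 6.8e-09) and 0.47 ± 0.15 (adjusted p = 0.010). Among lowered genes, Stc2, a secreted glycoprotein, measured 39.3, 41.8, 32.9 and 34.6 CPM in sham ears, 12.8 to 25.9 (median 14.9) CPM in drug ears and 22.3 to 35.7 CPM in imiquimod ears. For Stc2 the log2 difference was -1.15 ± 0.20 (adjusted p = 4.8e-06) and -0.63 ± 0.19 (adjusted p = 0.0083). Trdc, given above, was another.

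The next examples are from the 10 genes with the largest start-day change among those that imiquimod lowered there and that were back within 2-fold of sham. Hsd3b6, a steroid dehydrogenase of skin, measured 16.5, 17.7, 15.4 and 17.9 CPM in sham ears, 13.1 to 21.02 (median 18.4) CPM in drug ears and 5.46 to 9.75 CPM in imiquimod ears. Sham ears lay inside the drug range, at 0.07 ± 0.19 (adjusted p = 0.78), and imiquimod ears lay below both. Acoxl, an acyl-CoA oxidase relative, measured 52.4, 51.1, 43.2 and 58.9 CPM in sham ears, 35.97 to 55.2 (median 48.5) CPM in drug ears and 15.6 to 31.9 CPM in imiquimod ears. For Acoxl the log2 difference was -0.11 ± 0.18 (adjusted p = 0.62) against sham and 1.12 ± 0.17 (adjusted p = 1.8e-06) against imiquimod. Cyp3a57, a cytochrome P450, was -0.58 ± 0.18 (adjusted p = 0.0045) from sham, called while within 2-fold. It was 1.18 ± 0.18 (adjusted p = 9.8e-07) above imiquimod ears. Among raised genes that were back, Alox12b, a barrier lipoxygenase, was 0.68 ± 0.15 (adjusted p = 0.00016) in drug ears and 0.74 in imiquimod ears of day 5. Trac, the alpha constant chain of the T cell receptor, was 0.20 ± 0.38 (adjusted p = 0.67) and 0.69. Neither was called in the test of drug against imiquimod ears (adjusted p = 0.77 and 0.26).

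**Figure D5:**
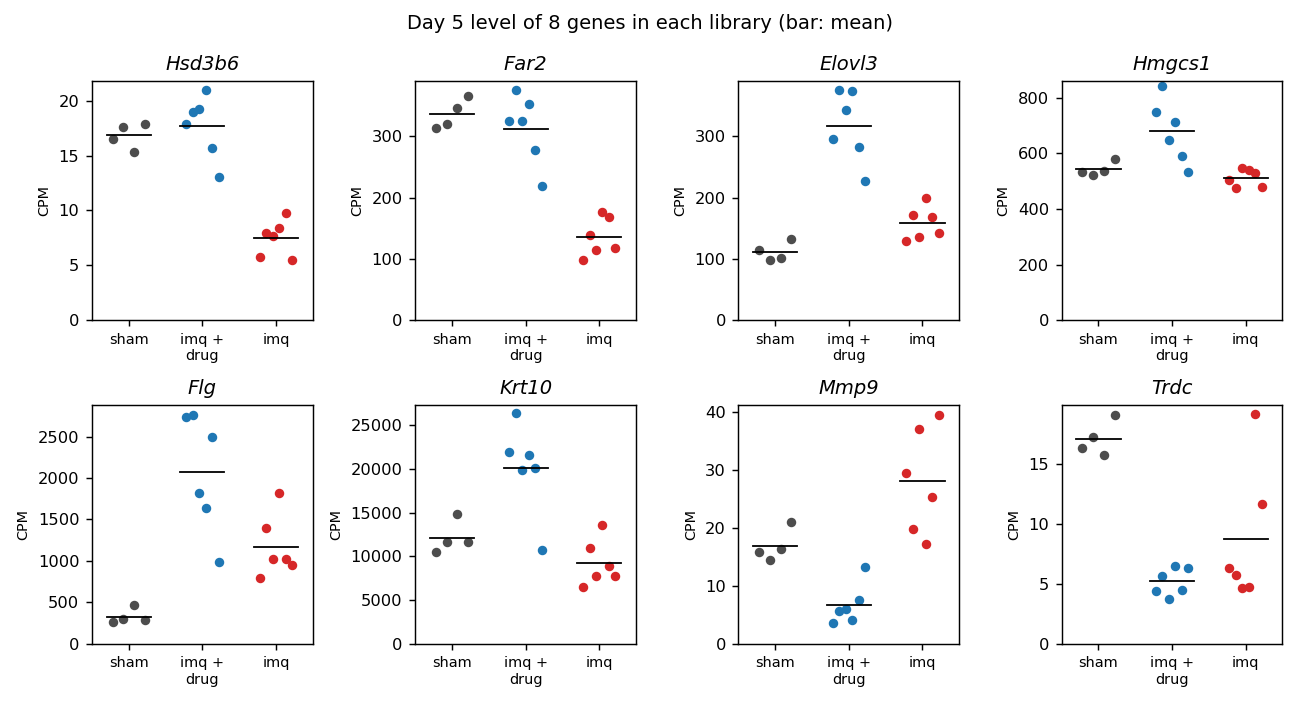
CPM (linear axes from 0) of Hsd3b6, Far2, Elovl3, Hmgcs1, Flg, Krt10, Mmp9 and Trdc in day 5 sham, drug (imq + drug) and imiquimod (imq) ears, each point 1 library and each bar a group mean. Hsd3b6 and Far2 lie at the sham level in drug ears, Elovl3 above both other groups and Mmp9 and Trdc below sham; drug library 36 held the lowest drug value of the first 6 genes.

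Of the 2736 genes away from sham in drug ears, 98 had a start-day imiquimod interval wholly within 2-fold of sham, 53 higher and 45 lower. Only these are counted here as outside the imiquimod genes. Away genes that met neither rule in the start-day experiment, or were not tested there, are not among them. Pctp, a phosphatidylcholine carrier, measured 7.998, 10.2, 10.7 and 10.2 CPM in sham ears, 35.005 to 51.6 (median 38.2) CPM in drug ears and 19.9 to 24.4 CPM in imiquimod ears. The 3 groups were separate, at 2.07 ± 0.20 (adjusted p = 1.4e-12) against sham and 0.88 ± 0.16 (adjusted p = 3.2e-05) above imiquimod ears. Acot5, a peroxisomal thioesterase, measured 2.16, 2.14, 2.74 and 3.52 CPM in sham ears and 6.61 to 13.2 (median 10.9) CPM in drug ears. For Acot5 the log2 difference was 2.02 ± 0.23 (adjusted p = 2.0e-10) against sham and 1.09 ± 0.19 (adjusted p = 2.0e-05) against imiquimod. Igfbp2, an IGF-binding protein, measured 79.5, 68.3, 67.8 and 78.9 CPM in sham ears, 166 to 310.1 (median 258) CPM in drug ears and 104 to 181 CPM in imiquimod ears. For Igfbp2 the log2 difference was 1.75 ± 0.18 (adjusted p = 9.0e-12) and 0.74 ± 0.15 (adjusted p = 0.00010). Imiquimod ears of day 5 thus also lay above sham for these genes, at 1.19, 0.93 and 1.01.

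Whether these differences belong to day 5 was asked by testing drug minus sham on day 5 against the same difference on day 8, in libraries that the comparisons do not share. The test called 236 genes (1.26%), with 123 more positive on day 5 and 113 more negative, and 2436 at an unadjusted p under 0.05. Of the 15 sebaceous gland genes 7 were called. No call was made among the 13 antimicrobial, 24 cell cycle and 26 activated keratinocyte genes. A share of 1.26% gives few or no calls in lists of this size, so these lists are not shown to be alike on both days. Far2 was -0.11 on day 5 and -0.99 on day 8 (adjusted p of the change 0.020), Plin2, a lipid droplet protein, 0.83 and 0.21 (0.012), and Scd1 -0.83 and -1.496 (0.042). Acoxl was -0.11 and -1.24 (0.014). Casp14, a protease of cornification, was 2.76 on day 5 and 3.55 on day 8 (0.020), and Per1, a clock gene, -0.96 and 0.43 (0.00041). The counts of this test moved most with single libraries, from 74 without sham library 21 to 575 without drug library 36, with 109 without drug library 32 and 116 without sham library 20.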

How the data were processed

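The members are the drug and sham libraries of day 5 in the time course of 52 libraries. The authors deposited estimated counts per gene from salmon, per the tables' names, on GRCm39 per the submitters' processing notes; no source used here gives the salmon version, the annotation, the strand setting or the other options. Estimated counts were rounded to whole numbers. Groups came from the sample titles and treatment labels. The mRNA libraries (Universal Plus mRNA kit, per the labels' protocols) carry no molecular identifiers that the labels name.

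Genes were filtered with filterByExpr and scaled by TMM, and all 9 time course groups entered 1 quasi-likelihood fit in edgeR 4.0.16 (R 4.3.3) with Benjamini-Hochberg adjustment over 18780 genes. The error printed after ± is the log2 fold change over the square root of the F statistic. A gene is still away from sham at an adjusted p under 0.05 and a log2 difference of at least 1 in size, and at the sham level where its 95% interval lies within 1 of 0. Imiquimod genes passed the first rule in the start-day experiment (30 libraries, 18434 genes tested). A gene counted as outside them only where its 95% interval there lay within 1 of 0. CPM use the TMM-scaled totals, and log2 CPM for library medians and components a prior count of 2. Genes at 0 in sham ears were set to a floor of 3 counts over the group, and genes with 1 to 3 sham counts have a ratio with a 95% interval. Intervals and floors cover counting error only.

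In simulated counts of 18598 genes, with 50 genes, none of low count, changed at each size, 66% of those changed 1.5-fold were called. The shares were 86% at 2-fold, 96% at 4-fold and 100% at 8-fold, with 10 calls among 18398 unchanged genes. The rule for the sham level passed 80% of genes changed 1.5-fold and 82.9% of unchanged genes. Far fewer genes were changed there than the 60.3% called in the ears, so the 10 calls do not give the error rate of that comparison. No pair of sham or of drug libraries of day 5 agreed within sampling noise. The members and lists were chosen with earlier results of these data known. The genes named are the panel; the 10 highest and 10 lowest, the 10 in each direction further from sham than imiquimod by ratio, the 10 back in each direction with the largest start-day change, the 8 outside the imiquimod genes and the 8 of the day comparison with the smallest p, or some of them; and up to 5 members of each list by p plus members described for their role. A few such genes are not reported here. Alternatives were other tools, scalings, filters, sample sets, margins and each library left out, with limma 3.58.1 and DESeq2 1.42.0. Promoter sequences are RefSeq's, on GRCm38.p6, matched by symbol. Python 3.11.15 drew the figures with matplotlib 3.10.9.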

Additional observations from a re-analysis of the deposited data

Results flagged for a closer look

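Of 100 groups of values checked at day 5, 13 held 1 library far from the rest by Dixon's criterion, and chance gives about 1 in 20. Drug library 36 stood apart with the highest Il1b (129 CPM) and Cxcl2 (79.1 CPM), the highest median log2 difference from the sham mean for endothelium (0.31) and red cell genes (1.78), and the lowest for sebaceous gland genes (-0.30). Drug library 32 had 0 CPM of Il17a and the lowest median of activated keratinocyte genes (5.44). Drug library 34 had the lowest median of mast cell genes (-0.38), and drug library 35 was apart for hair follicle genes (1.09). Sham library 19 stood apart for red cell genes (0.64), IL-23 and IL-17 genes (-0.16), basal keratinocyte genes (-0.12) and neutrophil genes (-0.19).

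For 6 of the genes described, the difference of drug from sham ears was itself different between day 5 and day 8 (edgeR, adjusted p under 0.05). On the log2 scale the day 5 difference minus the day 8 difference was 1.13 for Acoxl, 0.89 for Far2, 0.66 for Scd1 and 0.62 for Plin2, and it was -0.79 for Casp14 and -1.39 for Per1.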

How the results depend on the processing

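No paired analysis was possible because the running numbers of sham (19 to 22) and drug libraries (31 to 36) never coincide. The number of called genes ran from 10458 to 12822 over the alternatives run, and that of genes still away from 2344 to 3094. Imiquimod genes still away numbered 2077 to 2453 (other gene sets aside), and those back 1204 to 1603 (other margins and sets aside). Genes away whose imiquimod interval lay within 2-fold of sham numbered 67 to 130, the lowest with that interval taken from day 8 of the time course. A margin of 1.5-fold in place of 2-fold left 7046 genes at the sham level, 235 of them imiquimod genes. In the main set of 5301 imiquimod genes 2263 were still away and 1354 back. With imiquimod genes restricted to a 4-fold change, 1193 of 1665 were still away and 97 back. With those of day 8 of the time course, 2274 of 4083 were still away and 440 back. The share back was thus smaller in both of these sets. The day 5 against day 8 test called 416 genes with DESeq2 and 413 with limma voom, and from 74 to 575 with 1 library left out. It was not run without a filter, at 1 CPM, with only the compared groups or with sham ears of all days.

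Leaving out drug libraries 32 and 36 together, chosen after seeing the data, gave 10866 called genes and 2740 still away, with 2249 imiquimod genes still away and 1260 back. The medians of raised and lowered genes without single libraries were 69.1 to 72.8% and 66.3 to 68.2% of those of imiquimod ears. Leaving out 1 library can move such a median only to a neighbouring value, so these ranges do not measure the spread among ears. For raised genes single drug ears had medians of 0.868 (library 32) to 1.49 (library 36). None of the 143 named genes was called in the opposite direction under any alternative run. Calls were lost in 35 cases, and in 2 more without drug libraries 32 and 36, and gained in 15. Those that follow from 1 library are named beside their values. All these calls are of drug against sham ears, and the calls of drug against imiquimod ears were not rerun under the alternatives. Per1 was not called with sham ears of all days (adjusted p = 0.49). Depth limits genes with few sham counts, whose fold is given as a bound or a ratio.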
